A study of Mus musculus with 6 samples.

Results

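The genes described here are the ligands, receptors and Smad proteins of TGFβ signalling, 10 of the 55364 genes listed in the count tables. They are set by name, with no threshold on a measured value, although earlier results of these data were known when they were picked: Tgfb1, Tgfb2 and Tgfb3 among the ligands, Tgfbr1, Tgfbr2 and Tgfbr3 among the receptors, and Smad2, Smad3, Smad4 and Smad7 among the Smads. Each was matched to 1 Ensembl gene, and all 10 passed the filter on low counts. The study asked what Tks5, a scaffold protein of podosomes (actin-rich adhesions that degrade matrix), contributes to the activation of lung fibroblasts (LFs). Primary LFs were cultured from adult mice of the C57Bl6/J strain and kept in serum-free medium with 10 ng/ml TGF-β1 for 24 h, and RNA was read by Quant-seq, in which each read comes from the end of a polyadenylated transcript. There were 3 libraries of wt LFs and 3 whose labels read TKS5 KO. The study describes the mutant LFs as Tks5+/-, with 1 allele of Sh3pxd2a deprived of an exon by a Cre recombinase active in all tissues. These are called the KO libraries here only because their labels read so. Both groups received TGFβ, and LFs without it are not analysed here, so the values compare genotypes within the treated state and do not measure the response to TGFβ.

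TGFβ ligands are secreted in a latent form and, once released, bind the type II receptor (TGFBR2), which phosphorylates the type I receptor (TGFBR1). The type I receptor in turn phosphorylates SMAD2 and SMAD3, which join SMAD4 and enter the nucleus, while SMAD7 blocks the receptor and is itself induced by the pathway. In the lung, TGFβ is known for turning fibroblasts into contractile, matrix-producing myofibroblasts.

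Promoters of members whose transcripts moved, with that of Smad3 beside them, are shown first, to place those transcripts in the genome. RefSeq promoters of GRCm38.p6, from 250 bases before to 50 bases after the start of transcription, were taken for 5 members and 6 starts. They were searched for a TATA box (TATAAA, gene strand), a GC box (GGGCGG, both strands), the core bound by Smads (CAGAC, both strands) and an AP-1 site (TGANTCA, both strands), and no 2 matches overlapped. Among the 32851 promoters of that length, 8.32% held the TATA letters, 35.7% the GC box, 49.6% the Smad core and 7.81% the AP-1 letters. Each window below has 30 bases, 5′ to 3′ on the gene's strand, with the matched letters in capitals.
Tgfb2, TATA box starting 31 bases before the start, chr1:186706003-186706032, reverse strand: ttggggagcacaTATAAAactctgctccgg
Tgfb2, Smad core at 221 bases before the start, chr1:186706193-186706222, reverse strand: cccctccacacaCAGACccttggtgatcac
Tgfb2, Smad core at 204 bases before the start, chr1:186706176-186706205, reverse strand: ccttggtgatcaCAGACagtgactactgca
Tgfb1, GC box at 36 bases before the start, chr7:25686954-25686983, forward strand: tgggtggggccgGGGCGGcttcaaaacccc
Tgfbr1, GC box at 95 bases before the start, chr4:47353115-47353144, forward strand: tagggcgctcgcGGGCGGcgggggaggcgg
Smad3, GC box at 171 bases before the start, chr9:63758148-63758177, reverse strand: agacttgggagcGGGCGGgagaggagcggg

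The ligand promoters differed in their letters. Tgfb2 held the TATA letters, 2 Smad cores and no GC box, at 54.3% G and C, where the median over all promoters was 52.7%. Tgfb1 held 6 GC boxes and neither of the other motifs, at 77% G and C. The first start of Tgfbr1 held 2 GC boxes at 74.7% G and C, and a second start further into the gene held 1 Smad core. Tgfbr2, which was not called and whose window is not shown, held 1 Smad core and no GC box, at 59% G and C. Smad3, also not called, held 2 GC boxes. Over the 6 promoters, of members that were called and members that were not, 3 held a Smad core and 3 held a GC box. Promoters of Tgfb3, Tgfbr3, Smad2, Smad4 and Smad7 were not searched, so these counts do not cover all members. The AP-1 letters were in 0 of the 6 promoters. These matches describe sequence only and say nothing of binding in these cells.

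The libraries held 1344507 to 2369882 counts in the wt libraries and 1979084 to 2329155 in the KO libraries. The members together drew 462 to 1031 of these counts in a library, and 109 to 989 each over the 6 libraries. Levels are given as CPM, the count relative to a library size scaled by the TMM method. A floor of 3 counts, about the 95% upper limit on the expected count where 0 were read, came to 1.11 to 1.93 CPM. Calls took an adjusted p under 0.05 in edgeR's quasi-likelihood test, with adjustment over all 10346 tested genes, and a change of at least 1.2-fold. By this rule 44.9% of all tested genes were called, 22.1% lower and 22.8% higher in the KO libraries, so a call is common here. Sh3pxd2a itself had mean levels of 113 ± 16.5 CPM in the wt and 138 ± 11.1 CPM in the KO libraries (SD, n = 3 each), and its log2 fold change of 0.29 was not called (standard error, SE, 0.20; adjusted p = 0.249). The study reports a lower Tks5 transcript level in Tks5+/- LFs by quantitative PCR, which these reads did not show. It lists several primer pairs for Tks5, among them a pair over the deleted exon, and its legend for the LFs does not name the pair used. The PCR and these reads may thus measure different parts of the transcript. Why they differ from that report was not tested. Reads of Sh3pxd2a come from the transcript's end rather than the deleted exon, so they cannot show the deletion itself. They do not check the labels, and every direction below rests on the labels. 1 library stood apart: wt replicate 3 had 2058 CPM of macrophage markers, against 331 to 355 CPM in the other wt libraries, and the calls without it are given with the cell markers.

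Of the 10 members, 4 were called lower in the KO libraries, beside 22.1% of all tested genes, and 0 were called higher, beside 22.8%. The called members were the 3 ligands and the type I receptor. The 4 calls in either direction stand beside 44.9% of all genes, so the number of calls alone does not set these genes apart. The median log2 fold change of the 10 members was -0.49, against -0.05 over all tested genes. In 5 members all KO libraries lay below all wt libraries, and in 0 they lay above; over all tested genes 27.6% lay below and 26.1% above.

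**Figure D1:**
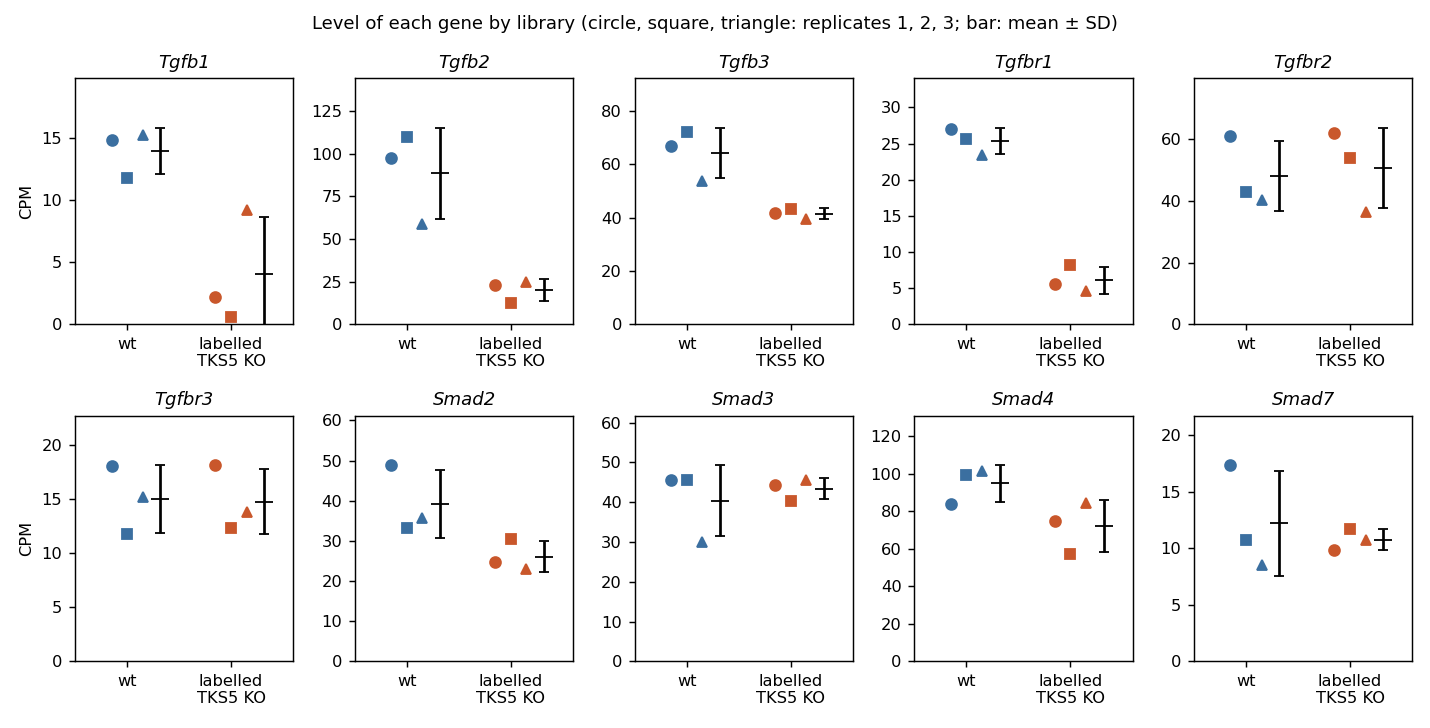
Level of each of the 10 genes in CPM by library, with wt libraries in blue, KO libraries in orange, marker shapes for replicates 1, 2 and 3, and the mean with its SD as a black bar (n = 3 a group; the lower end of the Tgfb1 bar passes below 0 and is cut there). Each axis has its own range from 0. The wt and KO points are apart for Tgfb1, Tgfb2, Tgfb3, Tgfbr1 and Smad2, and overlap for the other 5 genes.

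Among the ligands, Tgfb2 had the smallest adjusted p of all members. The gene of TGF-β2 (ENSMUSG00000039239) spans chr1:186622792-186705989 on the reverse strand in GRCm38, and its TATA box is shown above. It had 97.8, 109.7 and 58.6 CPM in wt replicates 1, 2 and 3 and 23.0, 12.3 and 24.6 CPM in KO replicates 1, 2 and 3. The lowest wt library, replicate 3, was still above the highest KO library. The level fell from 88.7 ± 26.8 to 20.0 ± 6.69 CPM (SD, n = 3 each), 4.39-fold lower with a 95% interval from 2.93 to 6.58 (log2 fold change -2.13, SE 0.28, adjusted p = 3.20e-06). Tgfb2 was called lower in all 18 alternative analyses, with log2 fold changes between -2.55 and -1.79. It also drew fewer of the reads of the 3 ligands. Of these reads, 54.5%, 56.6% and 45.9% fell on Tgfb2 in the wt libraries and 34.4%, 21.9% and 33.6% in the KO libraries. That share does not depend on the scaling between libraries, and its groups did not overlap.

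Tgfb1, whose product TGF-β1 is the ligand that was added to the cultures as a protein, also fell. The gene (ENSMUSG00000002603, chr7:25687002-25705077, forward strand) had 23, 22 and 41 counts in the wt libraries and 4, 1 and 18 in the KO libraries. This came to 14.8, 11.8 and 15.2 CPM in wt LFs and to 2.20, 0.585 and 9.21 CPM in the KO libraries. The groups did not overlap, but KO replicate 3 was much closer to wt than the other KO libraries were. The mean fell from 13.9 ± 1.88 to 3.997 ± 4.59 CPM (SD, n = 3 each), 3.38-fold lower with a 95% interval from 1.57 to 7.29 (log2 fold change -1.76, SE 0.53, adjusted p = 0.0109). The call was lost without KO replicate 1 (log2 fold change -1.41, adjusted p = 0.0691) or KO replicate 2 (-1.24, adjusted p = 0.05002), and without KO replicate 3 the log2 fold change was -3.27. As a share of ligand reads Tgfb1 overlapped between the groups, at 6.08 to 11.9% in wt LFs and 1.04 to 12.6% in the KO libraries.

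Tgfb3, which encodes TGF-β3 (ENSMUSG00000021253, chr12:86056745-86079041, reverse strand), showed a smaller difference. Its levels were 66.9, 72.2 and 53.8 CPM in wt LFs and 41.7, 43.3 and 39.4 CPM in the KO libraries. The KO libraries lay close together and below every wt library. The mean fell from 64.3 ± 9.51 to 41.5 ± 1.96 CPM (SD, n = 3 each), 1.55-fold lower with a 95% interval from 1.13 to 2.12 (log2 fold change -0.63, SE 0.22, adjusted p = 0.0232). The call was lost in 7 of 18 alternatives, by DESeq2 (adjusted p = 0.0520), in a test against a fold change of 1.2 (0.0525), with correction for transcript length (0.0591) and without wt replicate 1 (0.0614), wt replicate 2 (0.118), KO replicate 1 (0.0593) or KO replicate 3 (0.0850). Ttll5, a gene on the opposite strand, runs into the Tgfb3 locus, with no exon in a last exon of Tgfb3. Ttll5 drew 96 counts in all and was itself called lower (log2 fold change -1.23, adjusted p = 0.0218), and since the strand setting of the counting is not stated, reads of the pair may not be fully separated.

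The 95% intervals of Tgfb2 and Tgfb3 on the log2 scale, from -2.72 to -1.55 and from -1.08 to -0.17, did not overlap, and the makeup of the ligand reads differed. The share on Tgfb3 was 37.3%, 37.3% and 42.2% in wt LFs and 62.3%, 77.1% and 53.8% in the KO libraries. Every KO library was above every wt library in that share, although the Tgfb3 level itself was lower. The shares of a family are parts of the same total, so shifts within a family are tied and are not separate results. In KO replicate 2, where Tgfb1 and Tgfb2 were lowest, 77.1% of the ligand reads fell on Tgfb3 (95% exact binomial interval 67.4 to 85.0%, for counting error only). The summed level of the ligands was 128 to 194 CPM in wt LFs and 56.2 to 73.2 CPM in the KO libraries. For the shares an exact two-sided permutation test of 3 libraries against 3 cannot give a p below 0.1, which Tgfb2 and Tgfb3 reached (0.2 after adjustment over the 10 shares), against 0.5 for Tgfb1.

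**Figure D2:**
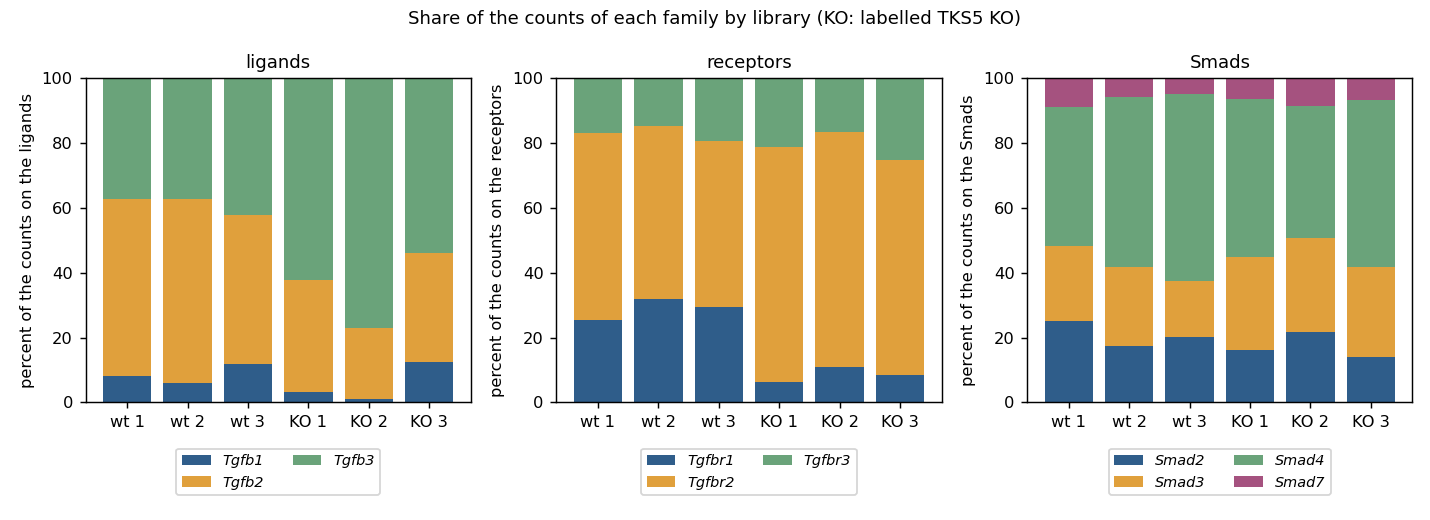
Percent of the counts on the ligands, the receptors and the Smads that fell on each gene, in each library. In the KO libraries Tgfb3 took 53.8 to 77.1% of the ligand reads, against 37.3 to 42.2% in wt LFs, and Tgfbr1 took 6.41 to 11.02% of the receptor reads, against 25.5 to 32%.

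Among the receptors, Tgfbr1 fell and the other two did not pass the test. Tgfbr1, the type I receptor kinase that phosphorylates SMAD2 and SMAD3 (ENSMUSG00000007613, chr4:47353222-47414931, forward strand), had 42, 48 and 63 counts in the wt libraries and 10, 14 and 9 in the KO libraries. Its levels were 27.0, 25.7 and 23.4 CPM in wt LFs and 5.49, 8.19 and 4.61 CPM in the KO libraries. Both groups were narrow and far from overlapping. The mean fell from 25.4 ± 1.86 to 6.10 ± 1.87 CPM (SD, n = 3 each), 4.18-fold lower with a 95% interval from 2.58 to 6.77 (log2 fold change -2.06, SE 0.34, adjusted p = 3.64e-05). It was called lower in all 17 alternatives that kept it, with log2 fold changes between -2.49 and -1.65.

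Tgfbr2, the type II receptor that binds the ligand first (ENSMUSG00000032440, chr9:116084293-116175360, reverse strand), had 61.1, 42.8 and 40.4 CPM in wt LFs and 62.0, 53.8 and 36.3 CPM in the KO libraries. The groups overlapped over nearly their whole range. The means were 48.1 ± 11.3 and 50.7 ± 13.1 CPM (SD, n = 3 each), at a log2 fold change of 0.08 (SE 0.25, adjusted p = 0.802) and a 95% interval from -0.42 to 0.59, which leaves out a fall of the size seen in Tgfbr1. Tgfbr3, the coreceptor betaglycan that presents TGF-β2 to the signalling receptors (ENSMUSG00000029287, chr5:107106570-107289629, reverse strand), had 11.8 to 18.0 CPM in wt LFs and 12.3 to 18.1 CPM in the KO libraries. Its log2 fold change was -0.02 (SE 0.32, adjusted p = 0.968), with a 95% interval from -0.68 to 0.64. The signs of both estimates turned in some alternatives, and with correction for transcript length Tgfbr2 was called higher (log2 fold change 0.65, adjusted p = 0.0333).

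The receptor reads were divided differently in the KO libraries. The share on Tgfbr1 was 25.5%, 32% and 29.6% in wt LFs and 6.41%, 11.02% and 8.41% in the KO libraries. The share on Tgfbr2 was 57.6%, 53.3% and 51.2% in wt LFs and 72.4%, 72.4% and 66.4% in the KO libraries. The groups were apart in both shares, each at the smallest exact two-sided permutation p of 0.1 (0.2 adjusted). Both are parts of the same total, so a lower share of Tgfbr1 goes with higher shares elsewhere. They do not count as separate results, and the level of Tgfbr2 itself was not called. For Tgfbr3 the share was 17.0 ± 2.29% in wt LFs and 20.97 ± 4.35% in the KO libraries (SD, n = 3 each; exact permutation p = 0.3).

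None of the 4 Smads was called. Smad2, a receptor-regulated Smad (ENSMUSG00000024563, chr18:76241580-76310963, forward strand), had 48.9, 33.2 and 35.6 CPM in wt LFs and 24.7, 30.4 and 23.0 CPM in the KO libraries. All KO libraries lay below all wt libraries, by a small margin. The estimate was -0.58 on the log2 scale (SE 0.25, adjusted p = 0.0643) with a 95% interval from -1.11 to -0.06. Smad2 was called with at least 10 counts required in every library (adjusted p = 0.0420) and with scaling by library totals alone (0.00289), while correction for transcript length brought its log2 fold change to -0.01.

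Smad3, the other receptor-regulated Smad of the pathway (ENSMUSG00000032402, chr9:63646767-63757994, reverse strand), had 45.7, 45.5 and 30.03 CPM in wt LFs and 44.4, 40.4 and 45.5 CPM in the KO libraries, at a log2 fold change of 0.12 (SE 0.24, adjusted p = 0.708). Its share of Smad reads was 17.1 to 24.1% in wt LFs and 27.8 to 28.9% in the KO libraries, which did not overlap (exact permutation p = 0.1, the smallest possible). Smad4, the common partner of the receptor-regulated Smads (ENSMUSG00000024515, chr18:73639009-73703780, reverse strand), had 83.7 to 101.6 CPM in wt LFs and 57.3 to 84.4 CPM in the KO libraries. Its log2 fold change was -0.40 (SE 0.21, adjusted p = 0.137) with a 95% interval from -0.84 to 0.05. Smad7, the inhibitory Smad (ENSMUSG00000025880, chr18:75367529-75395935, forward strand), had 18 to 27 counts in every library. Its level was 12.2 ± 4.61 CPM in wt LFs and 10.8 ± 0.913 in the KO libraries (SD, n = 3 each), at a log2 fold change of -0.14 (SE 0.36, adjusted p = 0.773) and an interval from -0.90 to 0.61. With so few counts the interval of Smad7 is the widest among the Smads. The shares of Smad2, Smad4 and Smad7 among the Smad reads overlapped between the groups.

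**Figure D3:**
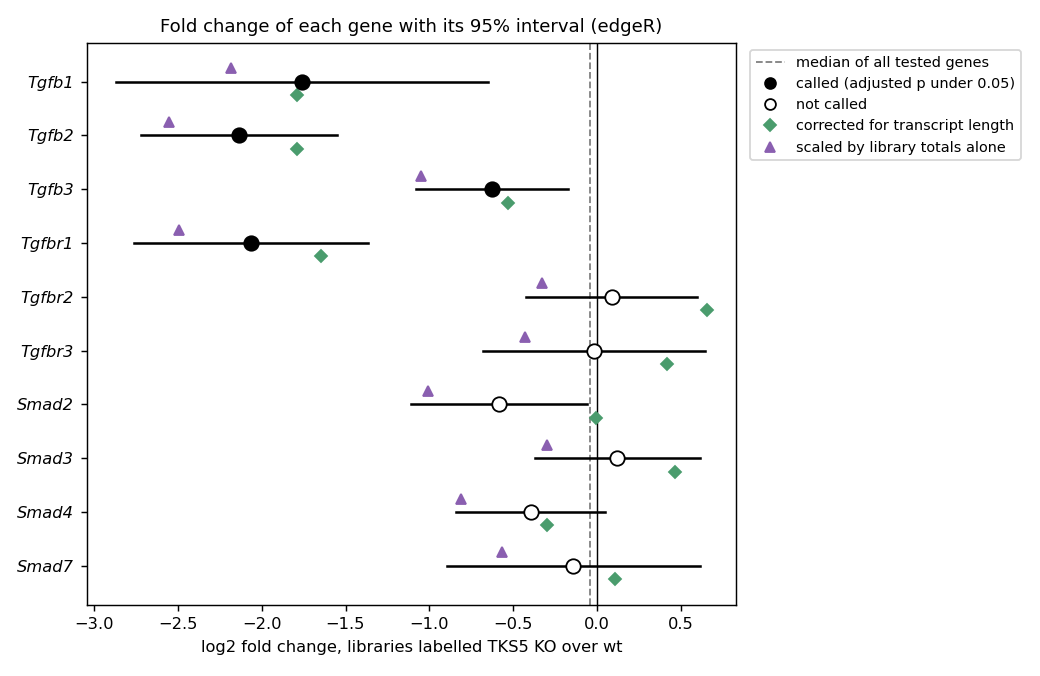
Log2 fold change of each gene (KO libraries over wt) with its 95% interval from the edgeR fit, filled where called, beside the estimates after correction for transcript length (green diamonds) and with library totals alone (purple triangles). Tgfb1, Tgfb2 and Tgfbr1 lie between -2.13 and -1.76 and Tgfb3 at -0.63, while the intervals of Tgfbr2, Tgfbr3, Smad3, Smad4 and Smad7 cross 0.

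Position on the log2 scale depended in part on how the libraries were put on 1 scale. With library totals alone the median of all genes moved to -0.47, the calls over all genes changed from 2356 higher and 2286 lower to 1362 higher and 3944 lower, and Smad2 and Smad4 joined the called members. Fold changes also ran with transcript length over all genes (Spearman correlation -0.40 across 10339 genes, which share the libraries and are not independent). The longest transcripts of the members ran from 2573 bases in Tgfb1 to 8092 bases in Tgfbr2, against a median of 3204 over the tested genes. With a correction for this trend Tgfb1, Tgfb2 and Tgfbr1 were called lower as before, at -1.79, -1.79 and -1.65.

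**Figure D4:**
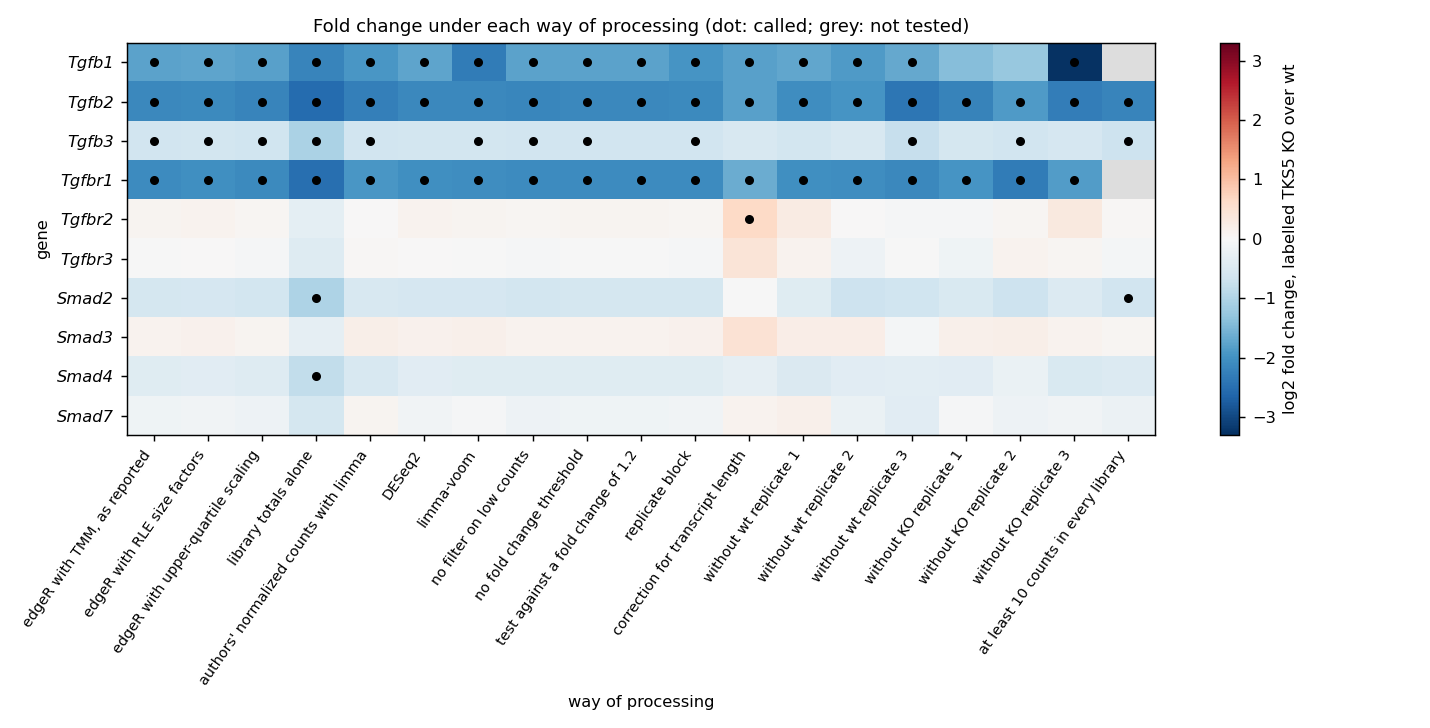
Log2 fold change (colour) of each gene under each way of processing, with a dot where it was called and grey where a filter removed it. Tgfb2 and Tgfbr1 carry a dot in every column in which they were tested, and Tgfb1 and Tgfb3 lose theirs in 2 and 7 columns.

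Other genes of the pathway, from 5 lists of 72 genes of which 64 were tested, were called lower in 31 cases and higher in 5, where over all tested genes 22.1% were lower and 22.8% higher. The proteins that hold the ligands latent or release them gave 8 of 12 tested genes lower, 0 higher and 4 not called, with a median log2 fold change of -0.97 against -0.05 over all genes. With correction for transcript length, 6 genes of this list were called lower and 1 higher. Ltbp2, a matrix protein of the family that tethers latent TGFβ, had 634, 805 and 899 counts in the wt libraries and 185, 111 and 143 in the KO libraries (log2 fold change -2.29, SE 0.22, adjusted p = 8.27e-08). Fbn1, which encodes the microfibril protein fibrillin-1, fell by 1.86 on the log2 scale (SE 0.22, adjusted p = 6.99e-07). Bmp1, a protease that can cleave latent TGFβ binding protein, fell by 1.42 (SE 0.21). Furin, the protease that cuts the ligand precursors, fell by 1.35 (SE 0.22). Ltbp1, which binds the latent complex, had a log2 fold change of 0.38 with a 95% interval from -0.06 to 0.83 and was not called (adjusted p = 0.151).

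Among the accessory receptors 2 of 9 tested genes were lower, 1 higher and 6 not called. Over all tested genes 22.1% were lower and 22.8% higher, so these numbers do not set the list apart. The number lower was 5 with library totals alone and 1 in 7 other alternatives. Eng, which encodes endoglin, a coreceptor best known from endothelium, fell from 52.1 ± 10.6 to 18.2 ± 2.08 CPM (SD, n = 3 each), a log2 fold change of -1.51 (SE 0.25, adjusted p = 5.32e-05). Sdc2, a cell surface proteoglycan, fell by 0.58 (SE 0.22, adjusted p = 0.0334), and this call was lost in several alternatives. Bambi, a decoy receptor without a kinase that dampens TGFβ signalling, had 1, 1 and 5 counts in the wt libraries and 30, 32 and 38 in the KO libraries. It was thus close to the limit of detection in wt LFs and well above it in every KO library (log2 fold change 4.02, SE 0.50, adjusted p = 1.42e-06).

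The partners and feedback regulators of the Smads gave 11 of 22 tested genes lower, 0 higher and 11 not called, with a median log2 fold change of -0.81. Pmepa1, a membrane protein that sequesters receptor-regulated Smads, fell from 1228, 1727 and 2020 counts in wt LFs to 583, 481 and 638 in the KO libraries (log2 fold change -1.41, SE 0.20, adjusted p = 8.43e-06). Smurf1, a ubiquitin ligase for Smads and receptors, fell by 1.35 (SE 0.25), and the transcriptional repressors Skil and Ski fell by 1.28 (SE 0.24) and 1.05 (SE 0.21). Smad6, the inhibitory Smad closest in role to Smad7, had a log2 fold change of -0.95 but was not called (adjusted p = 0.103). With correction for transcript length 7 genes of this list were called lower, and 7 without KO replicate 2. Of the BMP-type Smads, Smad1 was not called (log2 fold change 0.19) and Smad5 was, at -0.84 (SE 0.34, adjusted p = 0.0449), a call lost in 12 alternatives.

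Genes known to be induced by TGFβ moved in both directions, 9 of 19 tested lower, 4 higher and 6 not called, beside 22.1% lower and 22.8% higher over all tested genes. Lox, a collagen crosslinking enzyme, fell by 1.78 (SE 0.22, adjusted p = 1.54e-06), Fn1, the gene of fibronectin, fell by 1.55 (SE 0.21, adjusted p = 3.56e-06) and Nox4, an NADPH oxidase, fell by 1.63 (SE 0.25, adjusted p = 1.96e-05). Itga11, a collagen-binding integrin subunit, had 65, 119 and 98 counts in the wt libraries and 12, 5 and 15 in the KO libraries (log2 fold change -3.02, SE 0.34, adjusted p = 4.57e-07). Tgfbi, which encodes a matrix protein, had 17, 22 and 125 counts in the wt libraries and 7, 5 and 4 in the KO libraries, so that most of its wt reads came from replicate 3. Its log2 fold change was -3.04 over all libraries and -1.96 without wt replicate 3, an alternative chosen after seeing the data, and it was called in both. The contractile genes Tagln and Cnn1 rose, with log2 fold changes of 1.99 (SE 0.25, adjusted p = 1.73e-06) and 1.00 (SE 0.21, adjusted p = 0.000453). So did Snai2 and Snai1, transcription factors of mesenchymal cells, at 1.32 (SE 0.48, adjusted p = 0.0286) and 0.94 (SE 0.26, adjusted p = 0.00494). Snai2 had few reads, with 6, 2 and 23 counts in the wt libraries and 18, 21 and 27 in the KO libraries. In wt replicate 2 it lay below the floor of 3 counts. Acta2, which encodes the smooth muscle actin much used as a readout of the pathway, had a log2 fold change of -0.11 and was not called (adjusted p = 0.710).

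**Figure D5:**
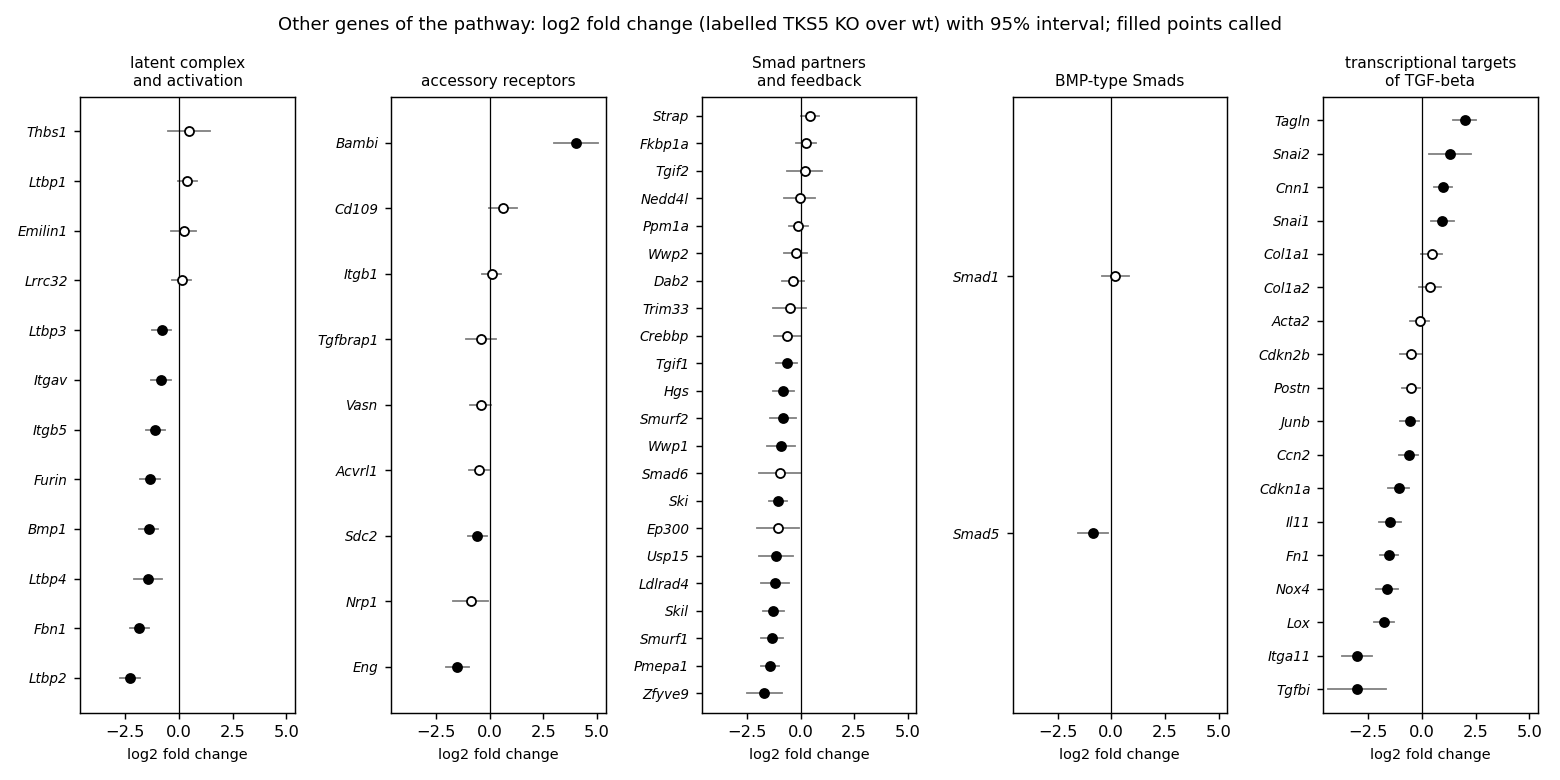
Log2 fold changes (KO libraries over wt) with 95% intervals of tested genes in the 5 pathway lists, filled where called. The latent complex and the Smad partners hold 8 and 11 genes called lower and 0 called higher, whereas the targets lie on both sides of 0, from Tgfbi at -3.04 (-1.96 without wt replicate 3) to Tagln at 1.99.

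Over the 6 libraries, the tested genes whose log2 CPM ran closest to that of Tgfb2, among 10023 compared, were Ablim1 (Pearson r 0.998), Kctd7 (0.998) and Sept11 (0.998). The libraries of a group shared genotype and culture, so with 6 libraries in 2 groups such values mostly follow the group difference and are given as a description.

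Markers of other lung cells moved with the same contrast, and in bulk RNA fewer cells of a type and less RNA per cell cannot be told apart. The summed level of 11 macrophage markers was 355, 331 and 2058 CPM in wt replicates 1, 2 and 3 and 129, 149 and 151 CPM in the KO libraries, with 4 of 9 tested markers lower, and Adgre1 and Ptprc at 0 in every KO library. Tgfb1, which macrophages also express, was at 14.8, 11.8 and 15.2 CPM in those wt libraries, highest in replicate 3 by a small margin. Without that library the log2 fold changes were -1.68 in Tgfb1, -2.37 in Tgfb2, -0.75 in Tgfb3 and -2.13 in Tgfbr1, and all 4 were called. The wt libraries left in that fit, at 355 and 331 CPM of macrophage markers, were still above every KO library. Leaving 1 library out therefore did not make the groups alike in these markers. Endothelial markers, relevant to Eng, summed to 118 to 146 CPM in wt LFs and 45.6 to 60.4 CPM in the KO libraries (4 of 5 tested lower; Pecam1 at 0 in every KO library). Markers of smooth muscle and pericytes summed to 103 to 149 CPM in wt LFs and 65.5 to 90.7 CPM in the KO libraries (4 of 5 lower), and mesothelial markers to 20.9 to 25.1 and 3.58 to 12.1 CPM (1 of 1 lower). Epithelial markers summed to 14.4 to 35.6 CPM in wt LFs and 29.2 to 60.3 CPM in the KO libraries (0 of 1 tested lower, 1 higher). The marker called higher was Ager, with 20, 18 and 35 counts in the wt libraries and 68, 103 and 57 in the KO libraries (log2 fold change 1.83, adjusted p = 4.53e-05). Ager alone made up the whole KO sum, with Sftpc and Scgb1a1 at 0 throughout. Cdh1 and Epcam went the other way and did not pass the filter on low counts. Cdh1 had 17, 8 and 58 counts and Epcam 2, 1 and 3 in the wt libraries, and both were at 0 in every KO library. Fibroblast markers, which define the labelled cell type, summed to 3876 to 5254 CPM in wt LFs and 5598 to 8715 CPM in the KO libraries. Of 9 tested, 1 was lower, 4 were higher and 4 were not called, so the list did not move as a whole. Col1a1, Col1a2 and Vim had the largest levels in that sum. Of those not called, Col1a1 and Col1a2 had positive estimates, and Dcn and Lum negative ones (-0.31 and -0.85 on the log2 scale). The part of the other cell types in the results on the pathway was not tested.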

How the data were processed

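RNA of LFs exposed to TGFβ was analysed in 3 wt libraries and 3 libraries labelled TKS5 KO. The authors deposited raw counts, made from reads that were trimmed with Trim Galore, mapped to GRCm38 by HISAT2 followed by BOWTIE2, counted over annotated transcript ends with metaseqR2 and added up by gene. The authors also deposited normalized counts, made with EDASeq and rounded, which were treated as a score and used as an alternative only. Strand handling and the EDASeq options are not given in the sources used here. The study's combination of 9 tests was not used here.

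Of 55364 listed genes, 55104 were matched to GENCODE M21 annotation of GRCm38, and 33644 had 0 counts throughout. Raw counts were filtered with filterByExpr, scaled by TMM and tested with the robust quasi-likelihood F test of edgeR 4.0.16 (limma 3.58.1, R 4.3.3), with Benjamini-Hochberg adjustment over the 10346 tested genes. Standard errors are the log2 fold change over the square root of F. Single shares were compared by exact two-sided permutation. The study calls its samples biologically independent, while the labels name no separate animals, so p-values measure the spread between these libraries, which may be in part technical.

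The alternatives were RLE and upper-quartile scaling, library totals, the normalized counts with limma (pseudocount 1), DESeq2 1.42.0, limma-voom, no filter, at least 10 counts in every library, calls by adjusted p alone, a glmTreat test against 1.2-fold, the replicate number as a block, a loess correction for transcript length (span 0.5), and each library left out. The members, the lists and the promoter search were chosen with earlier results of these data known. The other pathway genes named are called ones with a mean of at least 10 counts, at most 4 with the smallest adjusted p per list and direction, and some further ones (Ltbp1, Smad6, Smad1, Acta2, Tgfbi and the markers named outside the counts) were picked with their values known. Of the tested targets, 1 is counted but not reported by name or plotted here. Tables were made with pandas 2.3.3 and numpy 2.4.6, and plots with matplotlib 3.10.9.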

Additional observations from a re-analysis of the deposited data

How the results depend on the processing

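Tgfb2 was called lower in all 18 alternatives and Tgfbr1 in all 17 that tested it, while Tgfb1 was called in 15 of 17 and Tgfb3 in 11 of 18. In these numbers 1 alternative, calls by adjusted p alone, reused the reported fit and could not lose a call. The count of called genes was 3705 to 5306, and 3853 to 4595 with 1 library left out. The count of called members was 2 to 4 with 1 library left out, with 2 called without KO replicate 1, and was 6 with library totals. The median log2 fold change of the members, -0.49, moved to -0.91 with library totals, -0.32 with at least 10 counts in every library (which dropped Tgfb1 and Tgfbr1) and -0.15 with correction for transcript length. Among the alternatives run, signs turned only in members that were not called. Tgfbr2 was at -0.33 with library totals and between -0.037 (without wt replicate 3) and 0.31 with 1 library left out, also negative without KO replicate 1 (-0.032). Tgfbr3 was at 0.0087 with RLE scaling, 0.0071 with DESeq2, 0.044 with the normalized counts and 0.41 with correction for transcript length, and between -0.16 and 0.12 with 1 library left out, positive without wt replicate 1, KO replicate 2 or KO replicate 3. Smad3 was at -0.30 with library totals and between -0.072 (without wt replicate 3) and 0.22 with 1 library left out. Smad7 was at 0.10 with the normalized counts, 0.10 with correction for transcript length and between -0.37 and 0.17 (without wt replicate 1) with 1 library left out. The cause of these turns was not tested. The direction of the 10 shares held in the alternatives run, except that of Smad7 without wt replicate 3 (-0.15 percentage points). The count of called pathway genes was 28 to 45, against 36. With 109 counts over all libraries for Tgfb1 and 129 for Smad7, depth limits both.

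With the replicate number as a block 4668 genes and 4 members were called, and Smad5 was not. The correlations of same-numbered libraries' deviations from their group means were -0.001, -0.064 and 0.082, so the numbers were not taken as pairs.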

Other observations

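Within the lists of cell markers, genes differed in direction, and those given here were picked with their values known. Among 9 fibroblast markers, 4 were higher and 1 lower in the KO libraries. Thy1, a surface protein of fibroblast subsets, had 53, 82 and 182 counts in the wt libraries and 390, 280 and 362 in the KO libraries (log2 fold change 1.93, adjusted p = 1.48e-06), and Vim, the gene of vimentin, was higher by 1.27 on the log2 scale (adjusted p = 5.60e-05). Pdgfrb, a receptor of platelet-derived growth factor, had 352, 345 and 367 counts in the wt libraries and 199, 178 and 118 in the KO libraries (log2 fold change -0.997, adjusted p = 0.00203). Cspg4, a pericyte proteoglycan, had 37, 39 and 58 counts in the wt libraries and 4, 2 and 4 in the KO libraries (log2 fold change -3.60, adjusted p = 7.77e-07). Col1a1, the gene of the main chain of collagen I, overlapped between the groups, with 2970, 4442 and 3926 counts in the wt libraries and 6429, 3814 and 4059 in the KO libraries (adjusted p = 0.130).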
